A study of Neurospora crassa OR74A with 26 samples.

Results

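The 7 heat shock protein genes described here code for ATP-driven and small chaperones of the filamentous fungus Neurospora crassa. They were taken by locus tag, 7 of the 9733 genes measured. They are hsp70 (NCU09602), the Hsp70 chaperone of the cytosol; hsp88 (NCU05269), its Hsp110-type partner; hsp80 (NCU04142), the Hsp90 chaperone; hsp60 (NCU01589), the chaperonin of the mitochondrial matrix; hsp70-5 (NCU08693), the mitochondrial Hsp70; hsp98 (NCU00104), the disaggregase of the ClpB and Hsp104 type; and hsp30 (NCU09364), a small heat shock protein. The reference table of gene symbols holds all 7 locus tags and gives NCU09602 the symbol hsp70-1.

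Chaperones bind unfolded stretches of protein. The Hsp70 proteins hold and release such stretches in cycles of ATP hydrolysis, Hsp110 proteins exchange their nucleotide, and Hsp90 proteins act late in the folding of kinases, receptors and other clients. In mitochondria a separate Hsp70 pulls imported chains into the matrix, where the Hsp60 cage folds them. Many of these proteins are also made without heat, because growing cells have new proteins to fold, while disaggregases and small heat shock proteins are best known from heat and other stress.

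The study grew conidia for 16 h in sucrose medium, washed the cultures and moved them to Avicel PH101 (crystalline cellulose), to sucrose again or to medium with no carbon source, and sequenced polyadenylated RNA in 26 libraries of 16 groups. Wild type (FGSC 2489) was sampled in triplicate 1 h and 4 h after the move to Avicel or to sucrose and 4 h after that to no carbon. Single wild-type libraries came from Avicel at 30 min and 2 h and from no carbon at 1 h. A clr-1 deletion strain (FGSC 11029) and a clr-2 deletion strain (FGSC 15835) gave 1 library per hour (1 h and 4 h) for either medium, Avicel or sucrose. In each of these 2 strains a hygromycin resistance cassette stands in place of the open reading frame of a transcription factor needed for the cellulose response, and no library taken before the shift was analysed here.

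Levels are FPKM as deposited, fragments scaled by transcript length and by a factor for each library. That factor did not follow the number of reads recovered from the deposited coverage. On sucrose at 4 h, replicate 2 had 118835 hsp70 reads of 43.0 M and stood at 12236 FPKM. Without carbon at 4 h, replicate 2 had 21754 of 108.3 M and stood at 501 FPKM. Fold changes between media depend on this factor, and scaling by total reads was not tested. Libraries held 11.8 M to 110.6 M reads as recovered in this way, and the members had between 245 reads (hsp30) and 153081 reads (hsp70) in 1 library. Counting error was not compared with the spread between replicates. The read length was not taken from the labels but inferred from the deposited coverage and effective lengths, and by this measure reads were shorter in some libraries. Here replicate 1 of the Avicel and sucrose triplicates had 36 bases (1 h) or 40 bases (4 h), the 30 min and 2 h Avicel libraries had 36, all libraries without carbon had 51 and the rest had 50. The 51-base read length and the medium therefore cannot be told apart for the cultures without carbon, and results are also given from the libraries of 50 or 51 bases alone where these change a call. In the clr-2 deletion libraries clr-2 was listed at 0 in all 4, and in the clr-1 deletion libraries clr-1 stood at 6.13 to 23.1 FPKM. The labels do not say whether replicates are separate cultures, so the p-values measure the spread between these libraries, which may be technical.

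Tests are from limma on log2(FPKM + 1), with p adjusted by the Benjamini-Hochberg method over the 8629 genes whose mean level reached 1 FPKM, a filter that all 7 members passed, and a call under 0.05. A log2 change here is a difference of group means on that scale, given with its standard error (SE). Group means are given ± SD over 3 libraries.

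At 4 h the genes of the cytosolic Hsp70, Hsp110 and Hsp90 chaperones were 4.20- to 20.0-fold lower on Avicel than on sucrose, and those of the mitochondrial chaperones 5.02- to 22.0-fold lower. Of the 7 members, 5 were lower, 0 were higher and 2 did not pass the test. This was a comparison in which many genes moved: 58.4% of all tested genes were called, 24.2% as lower on Avicel. The median change over the members was -2.09 on the log2 scale, beside 0.24 over all tested genes.

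The gene hsp70 lies on supercontig 2 at 79807 to 82656. It stood at 13005, 12236 and 13801 FPKM on sucrose at 4 h and at 1759, 439 and 356 FPKM on Avicel. The groups did not overlap, and the Avicel library at 1759 FPKM is replicate 1, with the shorter reads. Means were 13014 ± 783 and 851 ± 787 FPKM, a log2 change of -4.32 (SE 0.47, adjusted p = 4.15e-06, limma), or 20.0-fold lower. Without Avicel replicate 1 the log2 change was -5.04.

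Its partner hsp88 lies on supercontig 4 at 5521208 to 5524832. The files list a pair of hsp88 transcripts, which were summed; the longer one took 76.8% to 93.2% of the gene's FPKM. The gene stood at 2162, 2233 and 2761 FPKM on sucrose at 4 h and at 615, 515 and 538 FPKM on Avicel. The groups were well apart and each was tight, with means of 2385 ± 327 and 556 ± 52.2 FPKM. The log2 change was -2.09 (SE 0.22, adjusted p = 3.1e-06), or 4.27-fold lower on Avicel.

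The Hsp90 gene hsp80 lies on supercontig 5 at 4974585 to 4978113. It stood at 4637, 3612 and 3958 FPKM on sucrose at 4 h and at 1515, 771 and 762 FPKM on Avicel. No Avicel library reached the lowest sucrose library. The log2 change was -2.07 (SE 0.25, adjusted p = 1.16e-05), or 4.20-fold lower on Avicel.

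Among the mitochondrial chaperones, hsp60 on supercontig 2 at 3012916 to 3015387 changed about as much as hsp70. It stood at 1991, 2222 and 2555 FPKM on sucrose at 4 h and at 142, 84.3 and 86.1 FPKM on Avicel. Every sucrose library was thus more than 10 times above every Avicel library. Means were 2256 ± 284 and 104 ± 33.1 FPKM, and the log2 change was -4.46 (SE 0.26, adjusted p = 1.45e-08), or 22.0-fold lower on Avicel.

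The mitochondrial Hsp70 gene, hsp70-5, lies on supercontig 4 at 4072155 to 4075127. It stood at 4937, 3077 and 3791 FPKM on sucrose at 4 h and at 1121, 612 and 662 FPKM on Avicel. The groups did not overlap. The log2 change was -2.33 (SE 0.59, adjusted p = 0.00398), or 5.02-fold lower, with a wider error than for hsp60. In all 4 Avicel and sucrose triplicates the short-read replicate 1 was the highest library for hsp70-5.

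The disaggregase and small heat shock genes did not pass the test. The disaggregase gene hsp98 (supercontig 3, 2635029 to 2638329) stood at 763, 329 and 336 FPKM on sucrose at 4 h and at 525, 389 and 387 FPKM on Avicel. Within each medium the short-read replicate 1 was the highest, and the other libraries were close together. The log2 change was -0.03, with a 95% interval of -0.67 to 0.60 (adjusted p = 0.936), and it was 0.22 in the 50- and 51-base libraries.

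The small heat shock gene hsp30 (supercontig 1, 3587002 to 3588207) stood at 145, 172 and 156 FPKM on sucrose at 4 h and at 302, 124 and 114 FPKM on Avicel. One Avicel library, the short-read replicate 1, was above all sucrose libraries and the other two were below them. The log2 change was 0.05, with a 95% interval of -0.58 to 0.67 (adjusted p = 0.907). The hsp30 values are uncertain, because its end at the higher coordinates shares 147 bases with NCU10352, which stood at 571 to 1552 FPKM, and no strand is stated. In the 50- and 51-base libraries alone hsp30 was called lower on Avicel, at -0.46 (adjusted p = 0.0125), and 6 members were called in place of 5, among 70.3% of all tested genes.

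**Figure D1:**
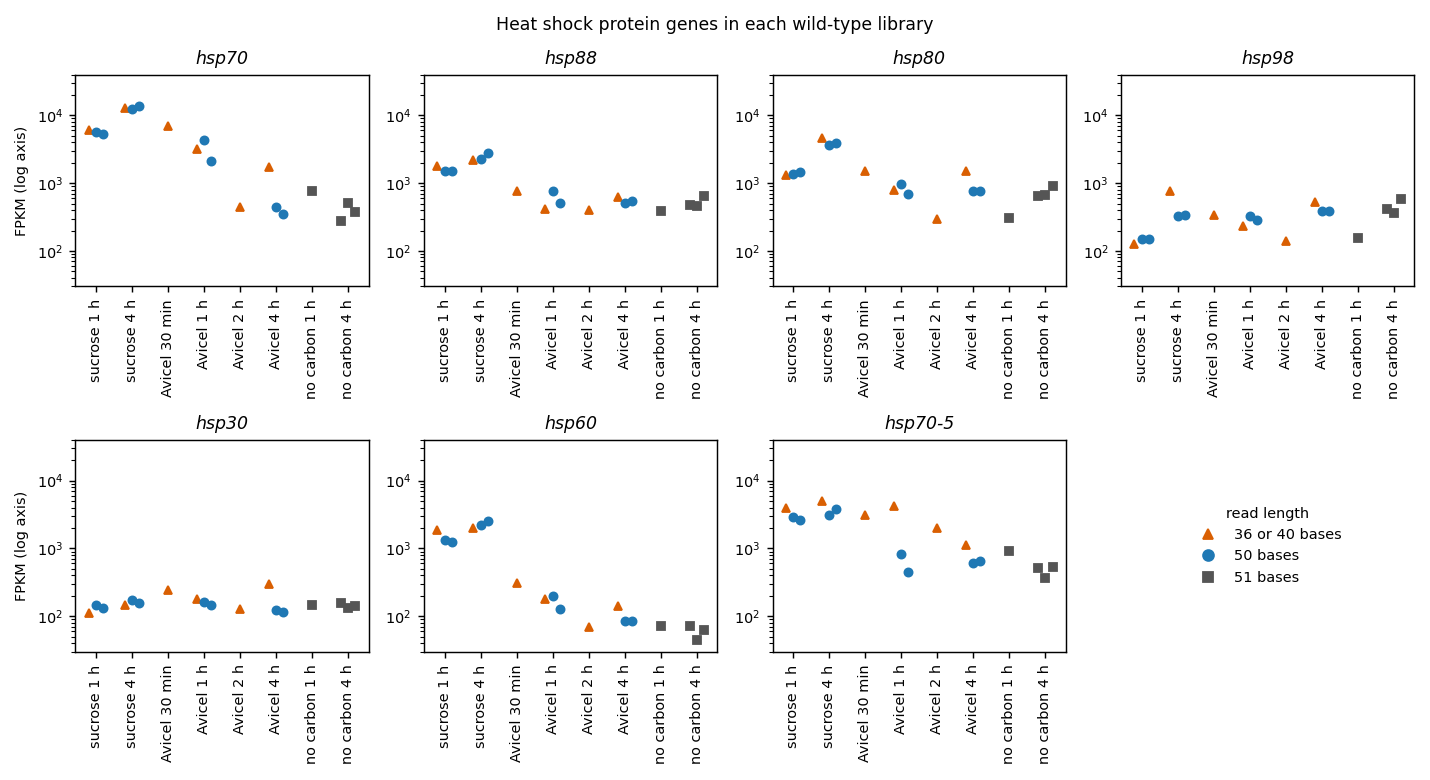
FPKM of each member (log axis) in the 18 wild-type libraries by group, with 1 point per library and symbols for read length. On sucrose at 4 h hsp70 sits between 12236 and 13801 FPKM and hsp60 between 1991 and 2555, above all Avicel and no-carbon libraries at 4 h, while hsp30 stays between 111 and 302 FPKM in all 18.

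The cultures left without carbon show which differences from sucrose also arise when no cellulose is given. Against sucrose at 4 h, 5 of the 7 members were lower without carbon, by name hsp70, hsp88, hsp80, hsp60 and hsp70-5, among 63.2% of all tested genes called and 23.6% called lower. The median member change was -2.46, beside 0.36 over all tested genes.

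Without carbon at 4 h hsp70 stood at 277, 501 and 378 FPKM. All 3 libraries were more than 10 times below the sucrose libraries, and 2 were within the range of the Avicel libraries. The log2 change against sucrose was -5.11 (SE 0.47, adjusted p = 8.38e-07), or 34.6-fold lower. For hsp60 the libraries without carbon stood at 72.1, 45.3 and 62.9 FPKM, all below the lowest Avicel library. Its change against sucrose was -5.23 (SE 0.26, adjusted p = 5.6e-09), or 37.4-fold lower. The changes of hsp80 (-2.46, adjusted p = 2.33e-06), hsp88 (-2.17, adjusted p = 2.03e-06) and hsp70-5 (-3.05, adjusted p = 0.000509) were smaller. Again hsp98 (0.01, 95% interval -0.63 to 0.65) and hsp30 (-0.14, 95% interval -0.77 to 0.49) did not pass.

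Set directly against each other at 4 h, Avicel and no carbon gave 0 calls among the 7 members with limma, among 5.39% of all tested genes. With voom on recovered reads there were also 0, and the voom share over all tested genes is not given here. At an unadjusted p under 0.05 there was 1 member, hsp60, with a log2 change of 0.77 (SE 0.26, unadjusted p = 0.01, adjusted p = 0.12), higher on Avicel in all 3 libraries. The interval for hsp70 was wide, from -0.22 to 1.81 around a change of 0.80 (adjusted p = 0.417), which fell to 0.08 without Avicel replicate 1. For hsp88 the interval was -0.40 to 0.56 and for hsp98 -0.68 to 0.59. These comparisons and the one of Avicel with sucrose share their libraries, so they are not separate evidence.

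Genes used as conidiation markers moved with these differences. The 6 conidiation markers (con-6, con-8, con-10, eas, fl and ccg-1) summed to 528 to 1776 FPKM on sucrose at 4 h, 92974 to 158449 FPKM on Avicel and 345545 to 384146 FPKM without carbon, mostly from ccg-1 and eas. All 6 were called higher on Avicel than on sucrose at 4 h and all 6 higher without carbon. On sucrose at 4 h con-6, con-8 and con-10 were listed at 0 in at least 1 library. The part of these markers in the chaperone changes was not tested, and in whole cultures fewer cells of a kind and less RNA per cell cannot be told apart. The markers did not always go together: in the single Avicel library at 2 h ccg-1 stood at 23750 FPKM and eas at 11.3 FPKM. Whether the sums follow the share of conidiating cells was not tested.

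**Figure D2:**
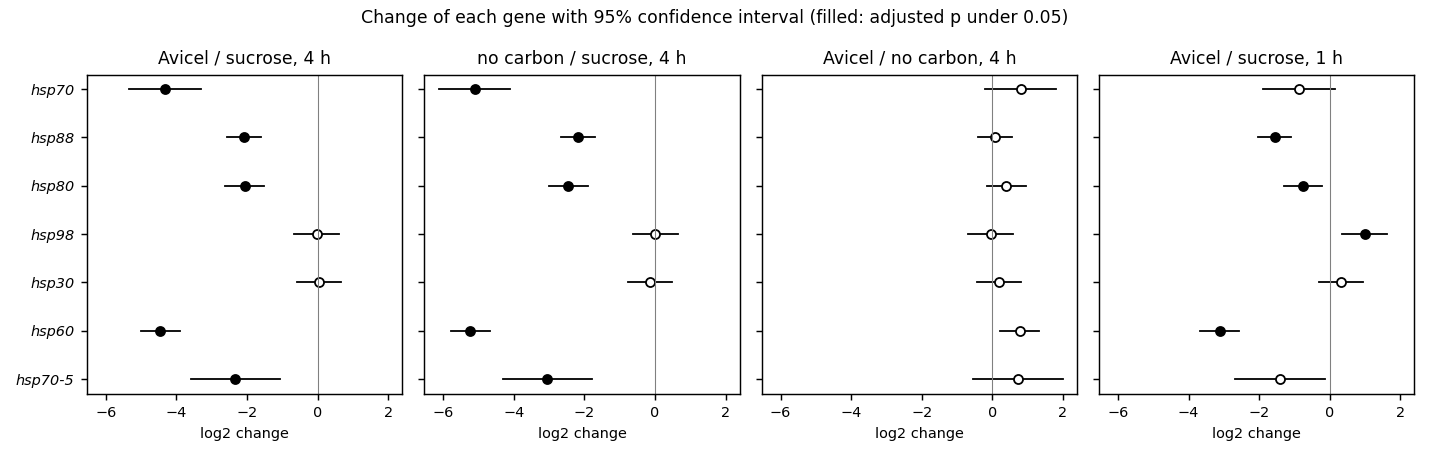
Log2 change of each member (horizontal axis) in 4 wild-type comparisons, with 95% intervals from limma as bars and filled points for an adjusted p under 0.05. At 4 h hsp70, hsp60, hsp88, hsp80 and hsp70-5 lie left of 0 on Avicel and without carbon against sucrose, and hsp98 and hsp30 straddle 0.

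After 1 h the same comparison called fewer members in the fit over all libraries, though not fewer of all tested genes. In the 50- and 51-base libraries hsp70 and hsp70-5 were also called lower, among 70.0% of all tested genes. Against sucrose at 1 h, 3 members were lower on Avicel (hsp60, hsp88 and hsp80) and 1 was higher (hsp98), among 62.0% of all tested genes called, 24.6% as lower and 37.3% as higher. The median member change was -0.88, beside 0.34 over all tested genes. Of the conidiation markers 4 of 6 were called higher on Avicel at 1 h. Together the 6 summed to 6163 to 25620 FPKM there and 1356 to 4795 FPKM on sucrose, mostly from ccg-1 (5851 to 24616 FPKM on Avicel). The marker eas did not share the rise, at 26.2 to 36.7 FPKM on Avicel and 0 to 157 FPKM on sucrose.

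At 1 h hsp60 stood at 1862, 1327 and 1265 FPKM on sucrose and at 181, 199 and 129 FPKM on Avicel. The groups were already far apart, and the log2 change was -3.12 (SE 0.26, adjusted p = 3.32e-07). The change of hsp88 was -1.56 (SE 0.22, adjusted p = 3.97e-05), from 1793, 1517 and 1533 FPKM on sucrose to 414, 766 and 508 FPKM on Avicel. That of hsp80 was -0.76 (SE 0.25, adjusted p = 0.0183), and it no longer passed without Avicel replicate 3 (-0.65, adjusted p = 0.0659) or sucrose replicate 3 (-0.73, adjusted p = 0.0523).

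The disaggregase gene hsp98 went the other way at 1 h. It stood at 128, 149 and 151 FPKM on sucrose, its lowest triplicate, and at 236, 331 and 289 FPKM on Avicel. The groups did not overlap, and the log2 change was 0.99 (SE 0.30, adjusted p = 0.0104).

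The Hsp70 gene hsp70 stood at 6029, 5688 and 5305 FPKM on sucrose at 1 h and at 3220, 4307 and 2118 FPKM on Avicel. All Avicel libraries were below all sucrose libraries, but the change of -0.88 (SE 0.47) did not pass, with an adjusted p of 0.121. In the 50- and 51-base libraries it was -0.86 and passed (adjusted p = 0.0457), among 70.0% of all tested genes.

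For hsp70-5 the call at 1 h turned on 1 library and on the settings of the fit. It stood at 3933, 2912 and 2628 FPKM on sucrose and at 4272, 822 and 454 FPKM on Avicel, where replicate 1, with the shorter reads, was above every sucrose library. The change was -1.41 (SE 0.59, adjusted p = 0.0514). With replicate number as a block it passed, at an adjusted p of 0.0201, as it did with a filter at 10 FPKM (adjusted p = 0.0497) and with rescaling (-1.56, adjusted p = 0.0425), and without Avicel replicate 1 it was -2.35 (adjusted p = 7.3e-05). Within the short-read pair of libraries the difference was 0.12, and within the 50-base pairs -2.18. Without Avicel replicate 3 it was -0.73.

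The response to Avicel, meaning the log2 difference from sucrose at the same hour, was itself compared between 4 h and 1 h. It was more negative at 4 h for 3 members, among 31.1% of all tested genes called and 16.3% called in that direction. For hsp70 the difference was -3.44 (SE 0.67, adjusted p = 0.00208), for hsp60 -1.33 (SE 0.36, adjusted p = 0.0143) and for hsp80 -1.31 (SE 0.36, adjusted p = 0.015). Without Avicel 4 h replicate 1 the hsp70 difference was -4.16. The other members did not pass: -1.02 for hsp98 (adjusted p = 0.0805), -0.92 for hsp70-5, -0.53 for hsp88 and -0.28 for hsp30. Counting the 50- and 51-base libraries alone, 6 members passed, among 46.6% of all tested genes, with hsp88 (-0.95), hsp98 (-0.82) and hsp30 (-0.61) added.

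The change with time was also tested within each medium. From 1 h to 4 h on Avicel, 2 members fell, among 37.0% of all tested genes called and 19.7% called lower. The level of hsp70 fell by 2.24 on the log2 scale (SE 0.47, adjusted p = 0.00247), or by 2.96 without Avicel 4 h replicate 1. That of hsp60 fell by 0.72 (SE 0.26, adjusted p = 0.0429). This hsp60 call was lost without any 1 of 4 libraries, namely Avicel 1 h replicates 1 and 2 and Avicel 4 h replicates 2 and 3, where the change was -0.59 to -0.66. It was also lost on rescaling by the median of gene ratios (-0.58, adjusted p = 0.122). The 50- and 51-base libraries added hsp30 as lower at 4 h (-0.37, adjusted p = 0.0479), among 46.8% of all tested genes.

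From 1 h to 4 h on sucrose, 2 members rose, among 7.61% of all tested genes called and 3.89% called higher. The Hsp90 gene hsp80 rose from 1339, 1346 and 1440 FPKM to 4637, 3612 and 3958 FPKM, with no overlap, a log2 change of 1.56 (SE 0.25, adjusted p = 0.00334). The disaggregase gene hsp98 rose from 128, 149 and 151 FPKM to 763, 329 and 336 FPKM, a log2 change of 1.62 (SE 0.30, adjusted p = 0.00574), with the short-read pair at 2.57 and the 50-base pairs at 1.15. With the groups of the comparison alone in the fit, hsp98 did not pass (adjusted p = 0.0788). Of the rest, 3 had higher means at 4 h without passing, namely hsp70 (1.20, adjusted p = 0.143), hsp60 (0.62, adjusted p = 0.167) and hsp88 (0.56, adjusted p = 0.146). All 3 passed in the 50- and 51-base libraries, which made 5 calls, among 34.6% of all tested genes.

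**Figure D3:**
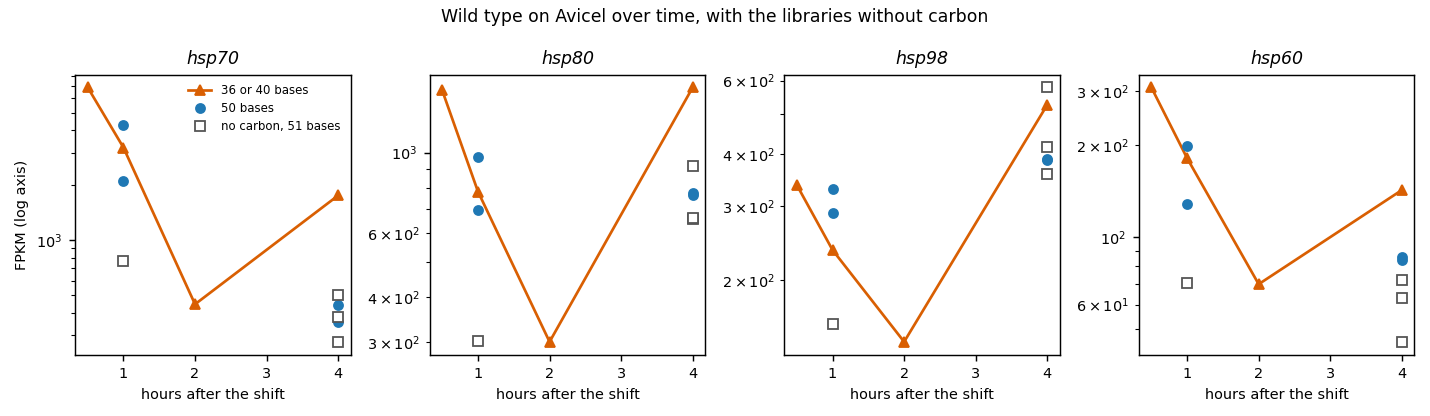
FPKM of hsp70, hsp80, hsp98 and hsp60 (log axis, its own range in each panel) against hours after the shift in wild type on Avicel (filled) and without carbon (open squares), 1 point per library. Lines join the Avicel libraries of 36 or 40 bases, in which hsp70 stands at 6897 FPKM at 30 min and 445 FPKM at 2 h.

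The Avicel course in wild type had single libraries at 30 min and 2 h, which are given as values. At 30 min hsp70 stood at 6897 FPKM, above its 3 libraries at 1 h, and at 2 h it stood at 445 FPKM, below them. For hsp80 the values were 1487 FPKM at 30 min and 300 FPKM at 2 h, again above and below the 1 h libraries, and its 4 h libraries at 762 to 1515 FPKM were above the 2 h library. The same order held for hsp98, at 338 FPKM at 30 min, 142 FPKM at 2 h and 387 to 525 FPKM at 4 h. For hsp60 the values were 310 and 70.0 FPKM, for hsp88 767 and 403 FPKM, and for hsp30 247 and 126 FPKM. The mitochondrial hsp70-5 stood at 3123 and 1993 FPKM, both within its 1 h range of 454 to 4272 FPKM. Both libraries have 36-base reads. Among the short-read Avicel libraries alone hsp70 stood at 6897, 3220, 445 and 1759 FPKM at 30 min, 1 h, 2 h and 4 h, so the order of 30 min, 1 h and 2 h also held there.

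At 1 h without carbon there was 1 library, whose spread is assumed to equal that of the triplicates. It held 768 FPKM of hsp70, 386 of hsp88, 303 of hsp80, 70.6 of hsp60, 910 of hsp70-5, 157 of hsp98 and 147 of hsp30. Against sucrose at 1 h, 4 members were lower (hsp70, hsp88, hsp80 and hsp60), among 58.9% of all tested genes called and 23.4% called lower. The changes were -4.35 for hsp60 (adjusted p = 8.67e-07), -2.88 for hsp70 (adjusted p = 0.00229), -2.18 for hsp80 (adjusted p = 0.000185) and -2.06 for hsp88 (adjusted p = 9.48e-05). For hsp70-5 the change was -1.77 (adjusted p = 0.0825), and in the 50- and 51-base libraries it passed at -1.60 (adjusted p = 0.00188), which made 5 calls, among 73.9% of all tested genes.

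Against Avicel at 1 h, this library gave 0 calls among the members with limma, among 0.788% of all tested genes. With voom 1 member was called, hsp80 at 1.17 (adjusted p = 0.0497), among 3.30% of all tested genes. At an unadjusted p under 0.05 there were 3 members, all higher on Avicel: hsp70 at 2.01 (adjusted p = 0.211), hsp80 at 1.42 (adjusted p = 0.102) and hsp60 at 1.23 (adjusted p = 0.159). These 3 and hsp98 at 0.98 passed in the 50- and 51-base libraries, 4 members among 27.4% of all tested genes. From 1 h to 4 h without carbon, 2 members rose, hsp80 by 1.28 (adjusted p = 0.023) and hsp98 by 1.49 (adjusted p = 0.0228), among 21.0% of all tested genes called and 10.1% called higher. Without the 4 h replicate 3, 0 members passed, among 15.9% of all tested genes, with hsp80 at 1.12 (adjusted p = 0.0618) and hsp98 at 1.30 (adjusted p = 0.061). The 50- and 51-base libraries added hsp70-5 as lower at 4 h (-0.97, adjusted p = 0.0308), among 48.9%.

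The order of the 5 wild-type triplicates by mean FPKM was the same for hsp70, hsp60, hsp88 and hsp70-5. For hsp70 the sucrose means were 13014 ± 783 FPKM (4 h) and 5674 ± 362 FPKM (1 h), the Avicel means 3215 ± 1094 FPKM (1 h) and 851 ± 787 FPKM (4 h), and the mean without carbon 385 ± 113 FPKM (4 h). Of the neighbours in that order, Avicel at 1 h and at 4 h differed in the test and the other pairs did not pass. For hsp60 the order was the same, at 2256 ± 284, 1484 ± 328, 170 ± 36.6, 104 ± 33.1 and 60.1 ± 13.6 FPKM. Its step from sucrose at 1 h to Avicel at 1 h passed by far and that from Avicel at 1 h to 4 h passed narrowly.

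The order of the hsp88 means was also the same, at 2385 ± 327, 1615 ± 155, 563 ± 183, 556 ± 52.2 and 531 ± 104 FPKM, and only the step from sucrose at 1 h to Avicel at 1 h passed among its neighbours. By medians, though, hsp88 on Avicel stood higher at 4 h (538 FPKM) than at 1 h (508 FPKM). The order of hsp70-5 was again the same, at 3935 ± 938, 3158 ± 686, 1850 ± 2106, 798 ± 281 and 471 ± 91.3 FPKM, with no neighbouring pair past the test. For hsp80, Avicel at 4 h (1016 ± 432 FPKM) stood above Avicel at 1 h (817 ± 144) and no carbon (745 ± 152), pairs whose tested differences did not pass, while sucrose at 1 h stood at 1375 ± 56.7 and sucrose at 4 h at 4069 ± 521.

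For hsp98 the 3 media at 4 h were close, at 476 ± 248 FPKM on sucrose, 451 ± 114 without carbon and 434 ± 79.4 on Avicel, and none of these pairs passed. Its lower levels were at 1 h, at 285 ± 47.6 FPKM on Avicel and 142 ± 12.7 on sucrose, a pair that passed. The means of hsp30 lay between 130 ± 17.1 FPKM on sucrose at 1 h and 180 ± 106 on Avicel at 4 h, and no wild-type comparison in the fit over all libraries called it.

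The range over all 16 group means separated the same genes. It was 37.4-fold for hsp60, 34.6-fold for hsp70, 13.4-fold for hsp80, 9.26-fold for hsp70-5, 6.14-fold for hsp88, 4.01-fold for hsp98 and 1.99-fold for hsp30. On the log2 scale these ranges ran from 0.99 for hsp30 to 5.23 for hsp60, and the median over all tested genes was 2.58. Summed over the 7 genes, the members took 0.336% to 0.524% of all FPKM on sucrose at 4 h, 0.229% to 0.276% on sucrose at 1 h, 0.111% to 0.220% after 1 h on Avicel, 0.0706% to 0.116% after 4 h there and 0.0692% to 0.0903% without carbon at 4 h.

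In the strains without clr-1 or clr-2 the 5 members called lower in wild type at 4 h also had lower values on Avicel than on sucrose, and hsp98 and hsp30 had slightly higher ones. In clr-1 deletion libraries hsp70 stood at 12610 FPKM on sucrose and 1162 FPKM on Avicel at 4 h, and in clr-2 deletion libraries at 11878 and 736 FPKM. Both Avicel values lie within the wild-type range of 356 to 1759 FPKM. The top of that range is replicate 1, whose reads were shorter than those of the deletion libraries. Wild-type replicates 2 and 3 stood at 439 and 356 FPKM, below both deletion values. Without the short-read libraries the log2 change of hsp70 from wild type on Avicel at 4 h was 1.55 (clr-1 deletion) and 0.89 (clr-2 deletion). Neither change passed the test. Each deletion value rests on 1 library. For hsp60 the values were 1156 and 81.5 FPKM in the clr-1 deletion strain and 1232 and 66.1 FPKM in the clr-2 deletion strain. On sucrose both strains were below the lowest wild-type library at 1991 FPKM, and on Avicel both were below the lowest at 84.3 FPKM.

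At 4 h the difference of Avicel from sucrose on the log2 scale was -3.44 for hsp70 in the clr-1 deletion strain and -4.01 in the clr-2 deletion strain, beside -4.32 in wild type. For hsp60 it was -3.81 and -4.20, beside -4.46. For hsp88 it was -2.25 and -2.05, beside -2.09, for hsp80 -2.02 and -1.86, beside -2.07, and for hsp70-5 -2.48 and -2.56, beside -2.33. For hsp98 it was 0.33 and 0.21, beside -0.03, and for hsp30 0.53 and 0.09, beside 0.05. At 1 h the difference for hsp98 was 0.19 and -0.13, beside 0.99 in wild type. These differences rest on 1 library per strain and medium, and their difference from wild type was not tested. The conidiation markers summed to 163156 and 171788 FPKM in the deletion strains on Avicel at 4 h, and to 5056 and 6026 FPKM on sucrose, above the 528 to 1776 FPKM of wild type there. These sucrose sums were mostly ccg-1, at 4965 and 5951 FPKM. The marker eas was lower there, at 17.2 and 17.8 FPKM beside 62.5 to 388 FPKM in wild type.

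Against wild type in the same medium and at the same hour, 0 of 28 member tests passed for the clr-1 deletion strain and 0 of 28 for the clr-2 deletion strain with limma. For the clr-1 deletion strain 1.26% and 0.0116% of all tested genes were called on Avicel at 4 h and 1 h, and 0.0695% and 0.0464% on sucrose. For the clr-2 deletion strain these shares were 1.01%, 0.0579%, 0.0811% and 0.0695%. At an unadjusted p under 0.05 there were 3 and 2 member tests, and voom called 0 in both strains. These were hsp60 on sucrose at 4 h (-0.96 in the clr-1 and -0.87 in the clr-2 deletion strain), hsp98 on sucrose at 1 h (1.14 and 1.15) and hsp88 on Avicel at 1 h in the clr-1 deletion strain (0.69). On sucrose at 1 h hsp98 stood at 315 and 317 FPKM in the 2 strains, above the 128 to 151 FPKM of wild type.

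The intervals of these tests were wide, and the lack of calls does not show that a member was unchanged. On sucrose clr-1 and clr-2 themselves, both lower there than on Avicel in wild type, were not called in either deletion strain. The share of all tested genes that voom called in the deletion tests is not given here. On Avicel at 4 h the 95% interval of the clr-1 deletion against wild type was -0.60 to 2.27 for hsp70, -1.09 to 0.48 for hsp60, -1.14 to 0.21 for hsp88 and -2.64 to 0.95 for hsp70-5. In the 50- and 51-base libraries 2 tests passed, both in the clr-1 deletion strain: hsp60 on sucrose at 4 h at -1.04 (adjusted p = 0.0377, among 18.6% of all tested genes) and hsp98 on sucrose at 1 h at 1.07 (adjusted p = 0.0485, among 3.18%). The wild-type side then rests on 2 libraries.

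**Figure D4:**
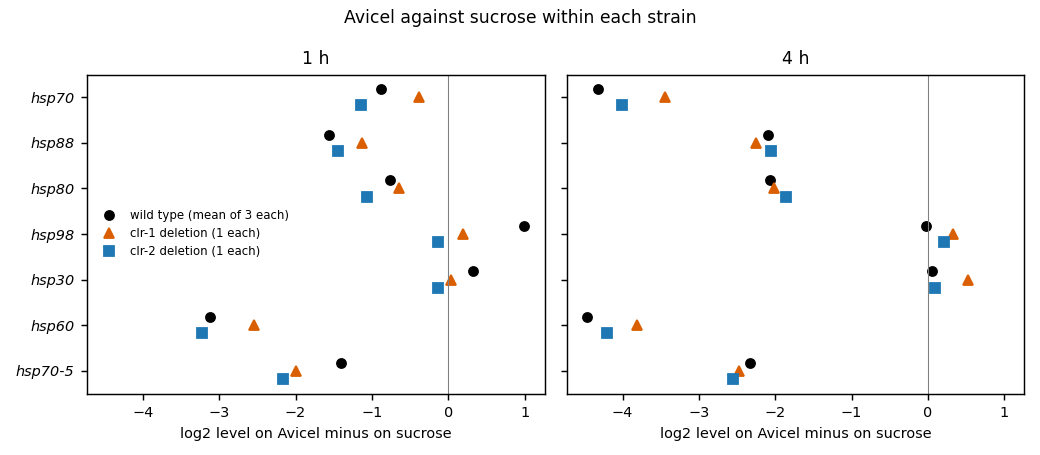
Log2 difference between Avicel and sucrose for each member in wild type (mean of 3 libraries a side) and in the clr-1 and clr-2 deletion strains (1 library a side), at 1 h and 4 h. At 4 h hsp70 and hsp60 lie between -3.44 and -4.46 in all 3 strains.

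The members also differed in which of them moved together over the 16 group means. As a description, Pearson's r of log2(FPKM + 1) was 0.98 between hsp88 and hsp60, 0.90 between hsp70 and hsp60, 0.89 between hsp88 and hsp80 and 0.87 between hsp70 and hsp88. With the other members, hsp98 had r between -0.30 and 0.52 and hsp30 between -0.12 and 0.32. The groups differ in read length and in their number of libraries.

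Among tested genes averaging 10 FPKM or more, the 3 most like each member over the 16 groups were named by r. For hsp88 they were NCU00225 (0.995), NCU07380 (0.993) and tim8 (0.993), which codes for a small chaperone of the mitochondrial intermembrane space. For hsp60 they were NCU07560 (0.994), NCU03559 (0.992) and NCU03624 (0.991). For hsp70 they were emp-7 (0.974), NCU07690 (0.969) and leu-1 (0.964), a gene of leucine synthesis. For hsp80 they were nic-6 (0.972), NCU06783 (0.971) and qde-1 (0.966), a gene of RNA silencing.

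Likeness was weaker for the remaining members. For hsp70-5 the nearest genes were NCU09004 (0.965), NCU07982 (0.953) and NCU11634 (0.952). For hsp98 they were NCU00320 (0.883), NCU05833 (0.829) and NCU04570 (0.816). For hsp30, which varied least, they were parp (0.728), mus-9 (0.727) and NCU01981 (0.723).

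**Figure D5:**
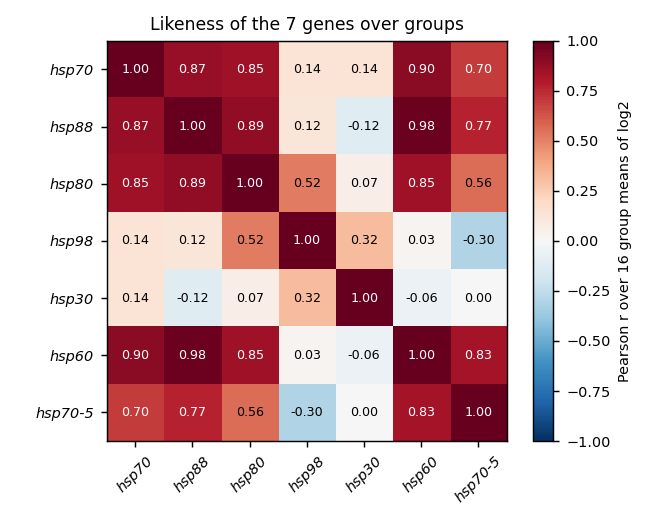
Pearson's r between each pair of members over the 16 group means of log2(FPKM + 1), as a colour grid with the value in each cell. The pairs among hsp70, hsp88, hsp80 and hsp60 run from 0.85 to 0.98, and the cells of hsp98 and hsp30 are near 0 or moderate.

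The other chaperone and heat shock factor genes with a symbol in the reference table were 6: hsp70-2, hsp78, hsp90a, hsf-1, hsf-2 and grp78. On Avicel against sucrose at 4 h, 3 were lower, 2 were higher and 1 did not pass, with a median of -0.42 beside 0.24 over all tested genes. The largest change was that of hsp70-2 (NCU02075), from 14734 to 35572 FPKM on sucrose to 187 to 1982 FPKM on Avicel, a log2 change of -5.84 (SE 0.69, adjusted p = 8.18e-06). Also lower were hsp90a (-1.26, adjusted p = 0.000102) and hsp78 (-1.05, adjusted p = 0.0188).

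The Hsp70 of the endoplasmic reticulum, grp78 (NCU03982), went the opposite way to hsp70 and hsp70-5. It stood at 11826 to 15979 FPKM on Avicel at 4 h, 2710 to 4451 FPKM on sucrose and 1673 to 2173 FPKM without carbon. The Avicel libraries were above all others, with log2 changes of 2.08 against sucrose (SE 0.42, adjusted p = 0.000775) and 2.88 against no carbon (SE 0.42, adjusted p = 0.000784). It was the 1 gene of these 6 called between Avicel and no carbon at 4 h. The heat shock factor gene hsf-1 was higher on Avicel than on sucrose at 4 h by 0.62 (adjusted p = 0.0351), and hsf-2 did not pass (0.21).

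Without carbon against sucrose at 4 h, hsp70-2 (-6.20), hsp78 (-1.11) and hsp90a (-1.07) were lower, hsf-2 was higher (0.71, adjusted p = 0.0341), and 2 did not pass. At 1 h on Avicel against sucrose, hsp70-2 (-4.95, adjusted p = 3.32e-05) and hsf-2 (-1.03, adjusted p = 0.00463) were lower, while hsp78 was higher (1.46, adjusted p = 0.00229). The hsp78 level was 48.8 to 55.4 FPKM on sucrose and 106 to 275 FPKM on Avicel at 1 h. It thus shared its direction at 1 h with hsp98, and at 4 h it was lower on Avicel whereas hsp98 did not pass.

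In the authors' deposited edgeR table for Avicel and sucrose, the false discovery rate was 2.07e-17 for hsp60 and 5.45e-12 for hsp70. In the authors' deposited table it was 2.08e-05 for hsp70-5, 8.02e-05 for hsp80 and 8.34e-05 for hsp88. In the same authors' deposited table it was 0.305 for hsp30 and 0.905 for hsp98. The sizes of its log2 fold change were 4.11 for hsp60 and 3.72 for hsp70 in the authors' deposited table, with the sign above 0 where FPKM was higher on sucrose. The check took 2360 genes with an FPKM difference of at least 2 on the log2 scale. Reading a sign above 0 as higher on Avicel, the direction was that of FPKM in 0.170% of them. In the authors' deposited edgeR table for Avicel and no carbon, the lowest false discovery rate among the members was 0.399, for hsp70. In the authors' deposited DESeq table for Avicel and sucrose, the adjusted p was 1.19e-13 for hsp60, 1.63e-05 for hsp70 and 0.00085 for hsp88. In the authors' deposited DESeq table it was 0.00355 for hsp70-5, 0.00426 for hsp80, 0.871 for hsp30 and 0.935 for hsp98. Its group headings had the direction of FPKM in 0.128% of 2342 such genes.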

How the data were processed

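The analysis covered 18 wild-type and 8 deletion-strain RNA-seq libraries. The authors aligned reads with TopHat and computed FPKM with Cufflinks 0.9.3, per the submitters' processing notes; the genome build is not given in the sources used here. The deposited files also list a coverage signal and transcript lengths per the file headers, from which reads were recovered; 87.5% to 93.0% of transcripts under 200 reads came out whole (tolerance 0.02). The authors' DESeq and edgeR tables hold means of scaled counts (a score), a fold ratio, a log2 fold change and p-values, as deposited.

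FPKM of the 9907 transcripts were summed to 9733 genes. Group means of log2(FPKM + 1) were estimated over all 26 libraries with limma 3.58.1 (R 4.3.3; eBayes with a trend) for the 8629 genes averaging 1 FPKM or more; tests were two-sided, Benjamini-Hochberg adjusted and called under 0.05. The residual degrees of freedom were 10, all from wild-type triplicates. The fit was tested on simulated data. The upper quartile of FPKM was 231 to 277, and no further scaling was applied in the main fit. How the deposited values were scaled is not known here. The narrow range may come from that scaling, so it cannot show that no scaling is needed. The voom alternative took its library sizes from the upper quartile of recovered reads. Fold changes on this scale slightly understate those of low genes.

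Same-numbered replicates of Avicel and sucrose, which also share read length, had r of deviations of 0.18, 0.12 and 0.18 at 4 h and 0.28, 0.18 and 0.24 at 1 h. Between Avicel at 4 h and sucrose at 1 h the values were 0.23, 0.24 and 0.09, so pairing is not shown by them. The main fit did not pair the libraries, and the block by replicate number was an alternative. Other alternatives were the pseudocount, filters, rescaling, 1 transcript per gene, fewer groups, voom, read length and leaving out each library. The members and lists were chosen with earlier results of these data known. Named genes were the members, the 3 most like each, the other chaperone genes by symbol and the conidiation markers; con-8 was matched by an older locus tag.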

Additional observations from a re-analysis of the deposited data

Results flagged for a closer look

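The response of 3 members to Avicel differed between the time points, by the test of that difference itself in limma. The log2 difference from sucrose was more negative at 4 h than at 1 h by -3.44 for hsp70 (SE 0.67, adjusted p = 0.00208), by -1.31 for hsp80 (SE 0.36, adjusted p = 0.015) and by -1.33 for hsp60 (SE 0.36, adjusted p = 0.0143). For hsp70 the short-read pair of libraries gave -2.89 at 4 h and -0.90 at 1 h, and the 50-base pairs gave -5.04 and -0.86. The difference between the hours was -1.99 in the short-read pairs and -4.17 in the fit of 50- and 51-base libraries for hsp70. It was -0.83 and -1.54 for hsp80, and -0.45 and -1.78 for hsp60.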

How the results depend on the processing

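The alternatives left 470 of the 490 changes of single members on the same side of the threshold. Leaving out 1 library did so for 328 of 336. Neither pseudocount moved a change across the threshold, and settings with so little effect raise the pooled share. The libraries of 50 or 51 bases alone gave more crossings than any other setting. In the 50- and 51-base libraries alone the members called were 6 for the change of the Avicel response with time, 5 for sucrose over time, 4 for Avicel against no carbon at 1 h and 2 for the clr-1 deletion, where voom gave 1 call for Avicel against no carbon at 1 h. For Avicel over time 1 member was called with no filter, with rescaling and with the groups of the comparison alone. Over all genes these settings called 3138, 3182 and 2098. Leaving out 1 library gave 1 to 2 members there, with 2582 to 2847 genes called where it gave 1. Without 1 library the calls were 0 to 2 for no carbon over time.

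Changes of sign were all in changes that had not passed; 2 of them, both of hsp30 in the 50- and 51-base libraries, passed with the other sign. For Avicel against sucrose at 4 h hsp98 was 0.18 with voom and 0.22 in the 50- and 51-base libraries (-0.24 to 0.37 without 1 library), and hsp30 was -0.46 in those libraries (-0.40 to 0.30). For Avicel against no carbon at 4 h hsp88 was -0.38 from its first transcript alone (0.00 to 0.24), hsp98 was 0.03 with rescaling (-0.19 to 0.15), and hsp30 was -0.07 with voom and -0.26 in the 50- and 51-base libraries (-0.26 to 0.44). For no carbon against sucrose at 4 h hsp98 was -0.08 with rescaling (-0.20 to 0.41) and hsp30 was 0.16 with voom. For Avicel over time hsp88 was -0.13 from its first transcript and -0.24 in the 50- and 51-base libraries (-0.17 to 0.28), hsp80 was -0.10 there (-0.08 to 0.42), hsp30 was -0.37 there and -0.13 with voom (-0.44 to 0.25), and hsp70-5 was 0.06 there (-1.29 to 0.33). The change of the hsp70-5 response with time was -1.60 to 0.02 without 1 library. The causes were not tested.

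Rescaling moved the median over all genes from 0.34 to 0.20 for Avicel against sucrose at 1 h. Over all genes, calls for sucrose over time were 657, against 2987 in the 50- and 51-base libraries and 197 without sucrose 1 h replicate 2; for Avicel against no carbon they were 465 against 1136 at 4 h and 68 against 2363 at 1 h. For Avicel over time they were 3195 against 2098 with the groups of the comparison alone. The replicate block changed no other call than that of hsp70-5 on Avicel at 1 h; for the no-carbon groups the numbers are shared only by name.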
